A study of Mus musculus with 18 samples.

Results

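Pancreatic islet libraries with a high level of 4 immediate-early transcripts were compared with libraries with a low level. Each of the 18 libraries was given a score, the mean deposited log2 value of Ier2, Jun, Junb and Dusp1, and the 6 libraries of highest and the 6 of lowest score were taken, 12 of 18 in all. The 6 libraries in between were kept for display and for fits over all 18. The libraries come from islets of mice with a beta-cell knockout of NRK1, made with an Ins1Cre driver (KO, 10 libraries), and of WT mice (8 libraries). All mice had been fed a high-fat diet, for 12 weeks. The labels give no age or sex, and they do not say whether the WT mice carry the driver. Ins1Cre recombines in beta cells, so the other islet cells of a KO mouse keep the gene. Nothing in the labels separates the islets by stress, handling or time to lysis, and the high and low sets are groups made from the measured values of 4 genes. Libraries are named KO 1 to KO 10 and WT 1 to WT 8. The labels do not say that each library is a separate mouse, so p-values measure the spread between libraries.

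Immediate-early genes are switched on within minutes of a stimulus, from transcription factors already present in the cell, and their short-lived transcripts fall again soon after. Jun and Junb encode subunits of the AP-1 transcription factor, which pairs Jun proteins with Fos proteins on DNA. Dusp1 encodes a phosphatase that switches off MAP kinases and so limits the response, and Ier2 encodes a small nuclear protein of the same early class. In islets these genes respond to glucose, calcium entry and cAMP, and they are also raised by tissue dissociation and other handling.

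The promoters of the defining genes are shown because cAMP and calcium act on such genes through the CRE, whose half-site is TGACG and whose full form is TGACGTCA, and because AP-1 binds TGANTCA. Each window holds 250 bases before and 50 after the start of the gene, from RefSeq on GRCm38.p6, read 5′ to 3′ on the strand of the gene. Capitals mark a match on either strand to the half-site, the full CRE or the AP-1 site, and a full CRE counts as a half-site on each strand. Mt2, a metallothionein that binds zinc and copper, is added because it had the smallest adjusted p between the sets in the fit without a genotype term. Ier2 is named only.
Jun, chr4:95052173-95052472, minus strand: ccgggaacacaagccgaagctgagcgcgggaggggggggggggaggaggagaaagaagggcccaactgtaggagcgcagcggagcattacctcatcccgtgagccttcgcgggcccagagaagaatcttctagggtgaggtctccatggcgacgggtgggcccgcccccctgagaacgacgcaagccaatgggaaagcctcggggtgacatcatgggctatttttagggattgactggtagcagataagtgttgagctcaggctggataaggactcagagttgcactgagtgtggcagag
Junb, chr8:84978699-84978998, minus strand: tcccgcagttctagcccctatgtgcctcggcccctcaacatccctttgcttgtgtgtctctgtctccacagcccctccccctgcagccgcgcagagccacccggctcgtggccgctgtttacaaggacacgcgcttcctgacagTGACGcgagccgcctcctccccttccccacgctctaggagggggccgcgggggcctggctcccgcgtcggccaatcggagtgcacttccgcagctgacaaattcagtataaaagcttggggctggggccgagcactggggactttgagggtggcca
Dusp1, chr17:26508423-26508722, minus strand: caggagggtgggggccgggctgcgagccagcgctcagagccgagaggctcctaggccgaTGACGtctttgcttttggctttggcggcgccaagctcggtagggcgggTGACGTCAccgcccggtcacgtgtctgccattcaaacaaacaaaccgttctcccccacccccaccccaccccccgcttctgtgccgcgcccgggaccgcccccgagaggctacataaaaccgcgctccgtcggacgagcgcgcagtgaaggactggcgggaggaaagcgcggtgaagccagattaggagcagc
Mt2, chr8:94172368-94172667, plus strand: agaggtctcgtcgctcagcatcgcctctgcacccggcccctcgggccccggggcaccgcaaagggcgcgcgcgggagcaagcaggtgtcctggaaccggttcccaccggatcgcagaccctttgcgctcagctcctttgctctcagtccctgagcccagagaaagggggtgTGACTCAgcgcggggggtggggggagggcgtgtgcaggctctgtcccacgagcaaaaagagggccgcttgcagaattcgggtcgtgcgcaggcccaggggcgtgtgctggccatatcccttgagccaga
Dusp1 held 3 half-site matches, a pair of them from 1 full CRE and the other upstream of it. Junb held 1 half-site, Mt2 held 1 AP-1 site, and the Jun window held none of the 3. Over the 32851 windows of this length, 20.81% held a half-site, 1.79% a full CRE and 7.808% an AP-1 site. A match is a description of these letters and no evidence of binding.

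The score was 5.40 in KO 1, 4.78 in KO 6, 4.75 in KO 10, 4.64 in KO 4, and 4.62 in both KO 7 and KO 8, which make up the high set. The low set held WT 8 at 3.94, WT 6 at 3.59, WT 1 at 3.58, KO 3 at 3.49, WT 2 at 3.32 and WT 7 at 2.65. The sets were chosen on these values, so their difference of 1.38 between the means is no result. Just outside the sets lay WT 5 at 4.45, below the lowest high library, and WT 3 at 4.01, above the highest low library. KO 1 and WT 7 stood apart at the ends, and the 6 middle libraries lay between 4.01 and 4.45.

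**Figure D1:**
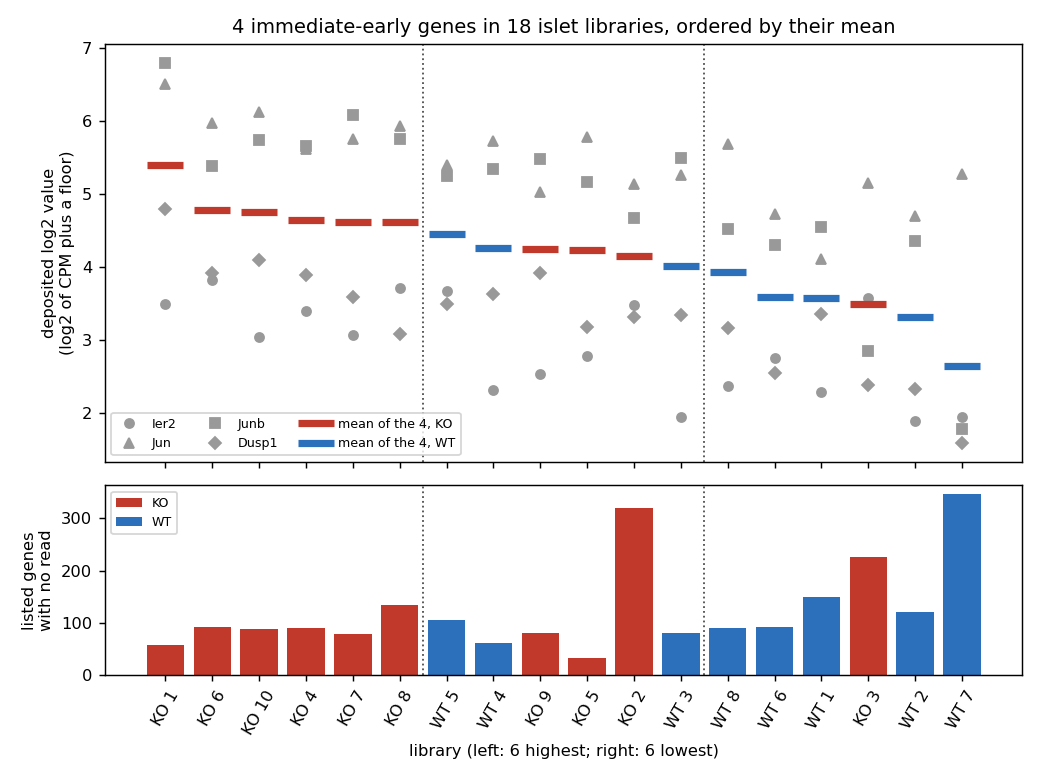
Top, log2 values of Ier2, Jun, Junb and Dusp1 (grey) and their mean (red KO, blue WT) in the 18 libraries, ordered by that mean; bottom, listed genes with no read in each library. KO 1 stands at 5.40 and WT 7 at 2.65, the 6 highest libraries are all KO, and 5 of the 6 lowest are WT.

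Of the 4 defining genes, Junb spanned most. Its log2 value had a lowest, median and highest of 5.39, 5.75 and 6.80 in the high set and 1.78, 4.33 and 4.55 in the low set, where the lowest values were those of WT 7, with 7 reads, and KO 3, with 17 reads. Jun lay at 5.63, 5.96 and 6.50 in the high set and 4.11, 4.94 and 5.68 in the low set. Dusp1 lay at 3.09, 3.91 and 4.80 against 1.60, 2.47 and 3.35. Ier2 was the most thinly counted, with 8 to 51 reads a library, and lay at 3.04, 3.45 and 3.82 against 1.89, 2.33 and 3.57. Only Junb did not overlap between the sets. In KO 3 the genes diverged: Ier2, at 3.57, was inside the range of the high set, while Junb was far below it.

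The 6 libraries of highest score were all KO, and the 6 of lowest score were 5 WT libraries and KO 3. With the 9 highest against the 9 lowest, the split was 7 KO and 2 WT against 3 KO and 6 WT. The mean score was 4.49 ± 0.50 (SD, n = 10) in KO and 3.72 ± 0.57 (SD, n = 8) in WT. The 4 genes were picked with earlier results between the genotypes known, so the split is given as a description with no test. High score and KO genotype cannot be told apart in the 12 libraries except through KO 3.

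The libraries held 2831137 to 4303680 reads over the listed genes, with a median of 60 reads a gene, and Ins2 took 43.1% ± 4.3 of reads in the high set and 42.6% ± 7.4 in the low set (SD, n = 6 each). Those means differed by less than the spread between libraries, with p = 0.887 by a two-sided exact permutation test, adjusted p = 0.887 over 3 library measures. Listed genes with no read numbered 58 to 134 in the high set and 90 to 346 in the low set, a difference in means of -80.5 with p = 0.0563 by the same exact test and an adjusted p of 0.169. KO 2, KO 3 and WT 7 had the most genes with no read, with 320, 227 and 346, and of these KO 3 and WT 7 are in the low set. The part of these libraries in each result is given below by leaving them out. Numbers at the end of the sample titles fall into runs of neighbours, and score ranges differed between them, with no steady order: 3.32 to 4.15 in the run of KO 2, KO 3, WT 1 and WT 2, 4.01 to 4.64 in that of KO 4, KO 5, WT 3 and WT 4, 4.45 to 4.78 in that of KO 6, KO 7, KO 8 and WT 5, and 2.65 to 3.59 in that of WT 6 and WT 7. KO 1, KO 9, KO 10 and WT 8 were placed in no run. The title number of KO 1 has more digits than all the others, so its place is uncertain. With the numbers taken as printed, no run held both high and low libraries, and the labels do not say what a run shares.

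The question of what else differs between high and low libraries was first put with genotype as a covariate, in limma on the log2 values with Benjamini-Hochberg adjustment over 10505 genes. Here 89 genes passed an adjusted p under 0.05, 0.847% of the genes tested, and 86 of them, 0.819%, were higher in the high set. Since the only KO library in the low set is KO 3, the fitted difference of every gene equals the mean of the 6 high libraries minus KO 3. Accordingly, KO 3 had the lowest value of all 18 libraries in 80 of the 86 higher genes, 93.0%, against 9.18% of all genes. In 11 of the 86 it had no read, and in 29 under 4 reads. The median of the 86 differences was 2.43 against KO 3 and 0.47 against the 5 low WT libraries.

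Single genes show the same shape. 0610010K14Rik, which had the smallest p, lay between 3.45 and 4.09 in the high set and between 2.75 and 3.54 in the 5 low WT libraries. In KO 3 it was listed at 0 reads. Scp2, a sterol carrier protein of peroxisomes, lay at 2.65 to 3.08 in the high set, and was listed at 0 reads in KO 3, while the low WT libraries spanned 2.32 to 3.13 and so overlapped the high set on both sides. Ftl1, the ferritin light chain that stores iron, had a median of 6.24 in the high set and was at 2.59 in KO 3, with WT 2 at 6.52. Its adjusted p was 0.00602 in limma, and its slope on the score without KO 2, KO 3 and WT 7 was -0.41.

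**Figure D2:**
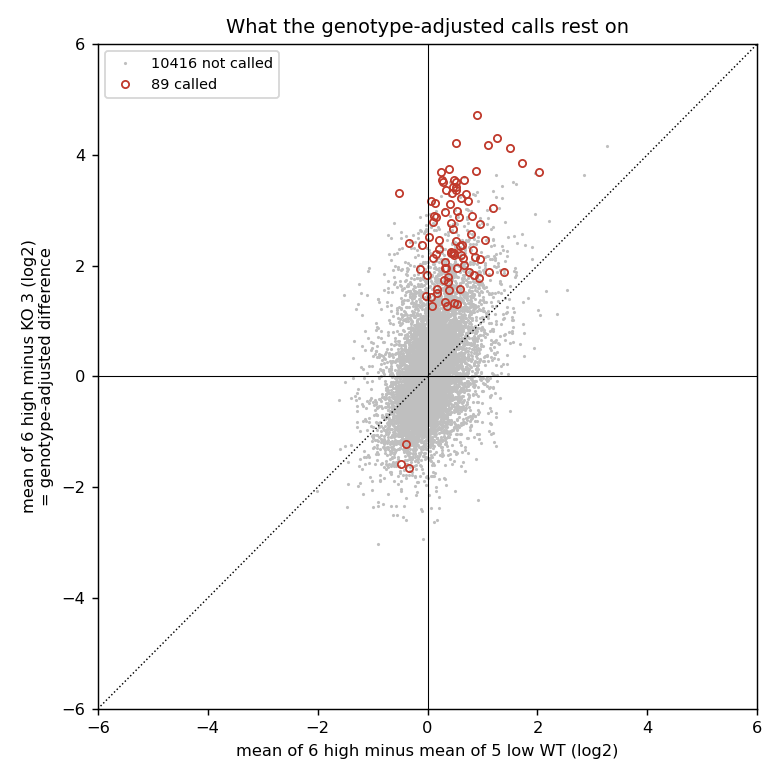
For each gene, the mean of the 6 high libraries minus the 5 low WT libraries (x axis) and minus KO 3 (y axis), in log2; called genes are marked. The 86 higher calls sit far up the y axis, with a median of 2.43, and near 0.47 on the x axis.

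The remaining 7 of the 10 higher genes of smallest p were Zfp668, Ifit1, Rnf114, Pick1, Psme2b, Tent5a and Pld3, with adjusted p from 0.00596 to 0.00917 in limma. Of these, Tent5a alone had a high set that did not overlap the low set. The 3 genes that were lower in the high set were Map4k4, a kinase of the JNK pathway, Crocc, a component of the ciliary rootlet, and Vps37a, a subunit of the ESCRT-I sorting complex. All 3 had their highest value of the 18 libraries in KO 3. Their differences were -1.59, -1.65 and -1.22, with adjusted p of 0.0266, 0.0431 and 0.047. The next by p, Jakmip1, Fam151a, Cox7a2l, Kctd2, Sumf1, Crebrf and Itpkb, did not pass, with adjusted p from 0.0532 to 0.08. Of the 86 higher genes, 48 had a slope above 0 once KO 2, KO 3 and WT 7 were left out, where 50.2% of all genes did. The calls of this fit therefore rest on the values of KO 3.

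Without a genotype term, which leaves score and genotype joined, 15 genes passed in limma, 0.143% of the genes tested, and all 15 were higher in the high set. In 11 of the 15 the lowest high library was above the highest low library, an order that 0.428% of all genes had, while 0.219% had the reverse order. The 15 were called on the same values, so this order follows largely from the call and is no separate support. Mt2 had the smallest adjusted p, 0.00271, with a difference of 1.42 ± 0.20 (SE, n = 6 each). Its log2 value had a lowest, median and highest of 9.74, 10.07 and 10.54 in the high set and 8.09, 8.48 and 9.40 in the low set, so the sets did not overlap. KO 2, a middle library, held the lowest Mt2 value of all, 5.87. Mt1, the neighbouring metallothionein gene on chromosome 8, differed by 0.96 ± 0.20 with an adjusted p of 0.0465, and was also lowest in KO 2, at 7.22.

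Cebpd, a transcription factor of the acute-phase response that is itself induced early, was 5.66, 3.34, 4.69, 4.54, 5.77 and 5.59 in KO 1, KO 6, KO 10, KO 4, KO 7 and KO 8. In the low libraries it was between 2.45 and 3.28. All high libraries were above all low ones, with KO 6 just above them, and the difference was 1.97 ± 0.34 with an adjusted p of 0.0134 in limma. Stc1, a secreted glycoprotein called stanniocalcin, lay at 4.55, 4.81 and 5.58 in the high set and at 2.22, 3.19 and 4.12 in the low set. It differed by 1.65 ± 0.29, with an adjusted p of 0.0134, and the sets did not overlap. Slc2a1, the glucose transporter GLUT1, lay at 4.01 to 5.04 against 2.45 to 3.79, again without overlap, with an adjusted p of 0.0465. The other genes that passed were Tent5a, C2cd4b, Crybb3, Cst3, Ifit1, Ext1, Litaf, Fbxw7, Fh1 and Flt1.

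The score was then used as a continuous term over all 18 libraries with genotype as a covariate, so that both genotypes contribute. A slope is the log2 difference per 1 unit of score. In limma 11 genes passed, 0.105% of the genes tested, all rising with the score: Tent5a, Fh1, Stc1, Armc10, Sod2, Tuba1b, Pim2, Chchd1, Ngdn, Gbp3 and C2cd4b. All 11 had slopes above 0 within KO alone, within WT alone, and without KO 2, KO 3 and WT 7, although none passed in those smaller fits. Those fits use parts of the 18 libraries on which the 11 were chosen, so the shared sign is no separate support. Of the 11, 4 had also passed between the sets without a genotype term, namely Tent5a, Stc1, Fh1 and C2cd4b. The number passing depends on single libraries: it was 0 without KO 3 (874 genes at an unadjusted p under 0.05), 1 without WT 7, 59 without KO 9, 75 without WT 2 and 137 without WT 5. It was also 0 without KO 2, KO 3 and WT 7, with 353 genes at an unadjusted p under 0.05, and 0 with genes without a read as a covariate.

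Tent5a, which encodes a poly(A) polymerase that lengthens the tails of transcripts for secreted proteins, had the smallest adjusted p, 0.00226, with a slope of 0.95 ± 0.14 (SE, n = 18). Its log2 values in the high set were 7.85 in KO 1 and KO 6, 8.04 in KO 10, 7.25 in KO 4, 7.82 in KO 7 and 7.78 in KO 8. In the low set they were 6.68 in WT 8, 6.81 in WT 6, 7.02 in WT 1, 5.89 in KO 3, 6.78 in WT 2 and 5.99 in WT 7. The middle libraries, at 6.87 to 7.63, lay between the sets and overlapped both. Its slope was 1.12 in KO alone, 0.79 in WT alone and 0.63 without the 3 libraries with the most genes at no read. Tent5a also passed in the same fit by limma voom on the recovered reads, the only gene that did, with an adjusted p of 0.00718.

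C2cd4b, a nuclear protein gene that cytokines induce, was at 6.22, 7.37 and 7.95 in the high set and 5.38, 5.83 and 6.24 in the low set, so that KO 10 in the high set was just below WT 1. Its slope of 1.00 ± 0.21 had an adjusted p of 0.0491, and it was 1.07 without the 3 libraries. Sod2, the manganese superoxide dismutase of mitochondria and a target of NF-kB, was at 4.87, 5.31 and 5.64 against 3.59, 4.43 and 5.06, and the sets overlapped. Its slope was 0.98 ± 0.19 with an adjusted p of 0.0348. Fh1, the fumarate hydratase of the citric acid cycle, had the steepest of the 11 slopes, 1.89 ± 0.32, but 2 reads in its lowest library, WT 7, and a slope of 0.55 without the 3 libraries. Tuba1b, an alpha tubulin, fell from a slope of 1.71 to 0.07 without them, so its call rests on those libraries.

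**Figure D3:**
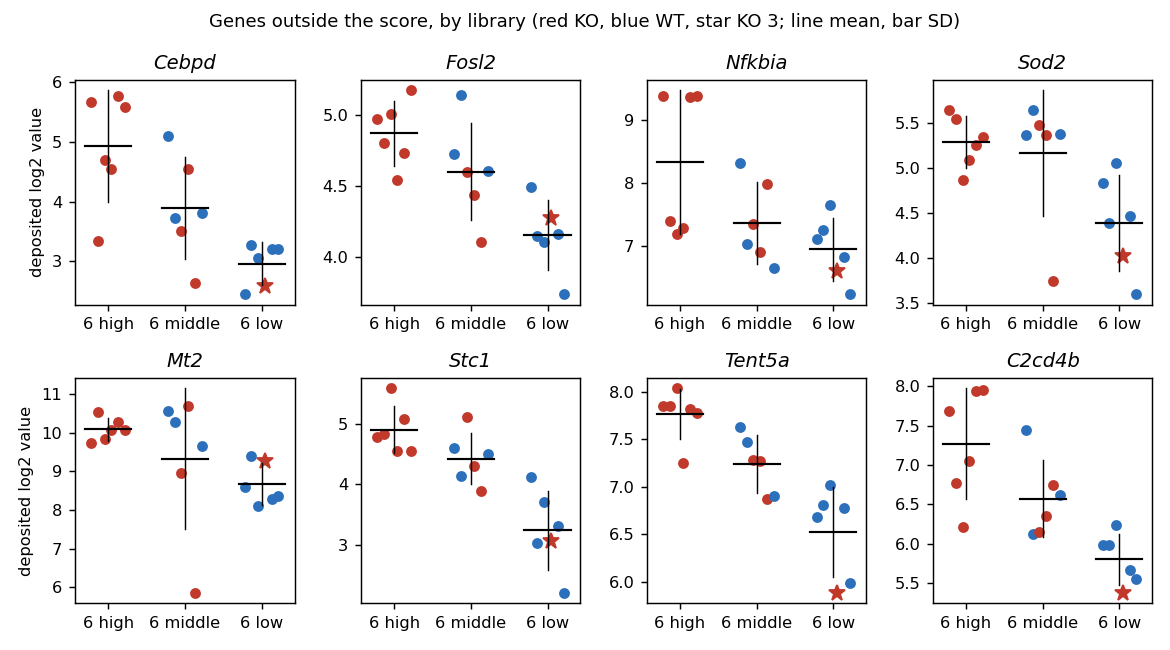
Deposited log2 values of 8 genes in the 18 libraries, by set, with KO in red, WT in blue, KO 3 as a star, the set mean as a line and its SD as a bar. Mt2, Cebpd and Stc1 have all 6 high libraries above all 6 low ones, and KO 2 in the middle set is the lowest point for Mt2 at 5.87.

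Other transcription factors listed as early response genes followed the score unevenly. The list is broad and holds Srf, Hes1, Per1 and Crem beside Fos and Egr1. Of 25 further factors measured, besides those chosen, 22 had a slope above 0, where 53.2% of all genes did, and 11 had an unadjusted p under 0.05 in the rising direction, where 9.99% of all genes did. None fell at that level, where 5.26% of all genes did, and none of the 25 passed the adjusted threshold. Their median slope was 0.60 against 0.03 over all genes, and 0.41 without KO 2, KO 3 and WT 7. In 16 of the 25 the slope was above 0 in both KO and WT, against 33.3% of all genes. With the run of title numbers as a term, over the 14 libraries of runs of at least 2, 15 of the 25 were above 0 and the median was 0.20. Over all genes in that fit, 5445 of 10505 were above 0 and the median was 0.03.

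Among the partners of Jun, Fos was listed at 0 reads in WT 2, and its log2 value lay at 1.97, 3.20 and 4.09 in the high set against -0.83, 1.24 and 2.66 in the low set, with an overlap. Its slope of 1.02 ± 0.47 had an adjusted p of 0.29. Fosl2, another Fos protein, lay at 4.54, 4.89 and 5.18 against 3.73, 4.15 and 4.50, and all high libraries were above all low ones. Its slope of 0.60 ± 0.16 had an adjusted p of 0.093. Fosb had a slope of -0.13, with an adjusted p of 0.895, and Jund a slope of -0.16, with an adjusted p of 0.67. Jund, a Jun protein that resting cells also make, lay at 7.50 to 8.11 in the high set and 7.02 to 8.35 in the low set, on 476 to 1084 reads a library, and the sets overlapped widely. Egr1, a zinc finger factor of the same early class, lay at 2.97, 4.80 and 6.27 against 3.05, 3.84 and 4.66. The Egr1 slope of 0.71 had an adjusted p of 0.412. Atf3, a stress-induced partner of Jun proteins, had a slope of 0.69 with an adjusted p of 0.337. Maff, a small Maf protein, had a slope of 1.11 with an adjusted p of 0.0707, and Klf6 had a slope of 0.01.

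Among 19 other early response genes, 15 had a slope above 0 (53.2% of all genes), 6 had an unadjusted p under 0.05 in the rising direction (9.99% of all genes) and none passed. Their median slope was 0.16. Plk3, a stress-responsive kinase, had a slope of 0.88 ± 0.20 with an adjusted p of 0.0675. Ier3, which limits cell death after NF-kB signals, was highest in KO 1 at 7.72, and the sets overlapped, at 5.79 to 7.72 against 5.38 to 6.53. Ppp1r15a, which lets translation resume after stress, lay at 3.41 to 5.03 against 2.21 to 3.49. Btg2, an antiproliferative early gene, was at 5.55 to 6.25 against 5.39 to 6.28. Of 9 genes that damp MAP kinase signals, 7 had a slope above 0, where 53.2% of all genes did, and the median was 0.46, but it was 0.08 without KO 2, KO 3 and WT 7. Dusp6, a phosphatase for ERK, had a slope of 1.18 over the 18 libraries and 0.24 without those 3.

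**Figure D4:**
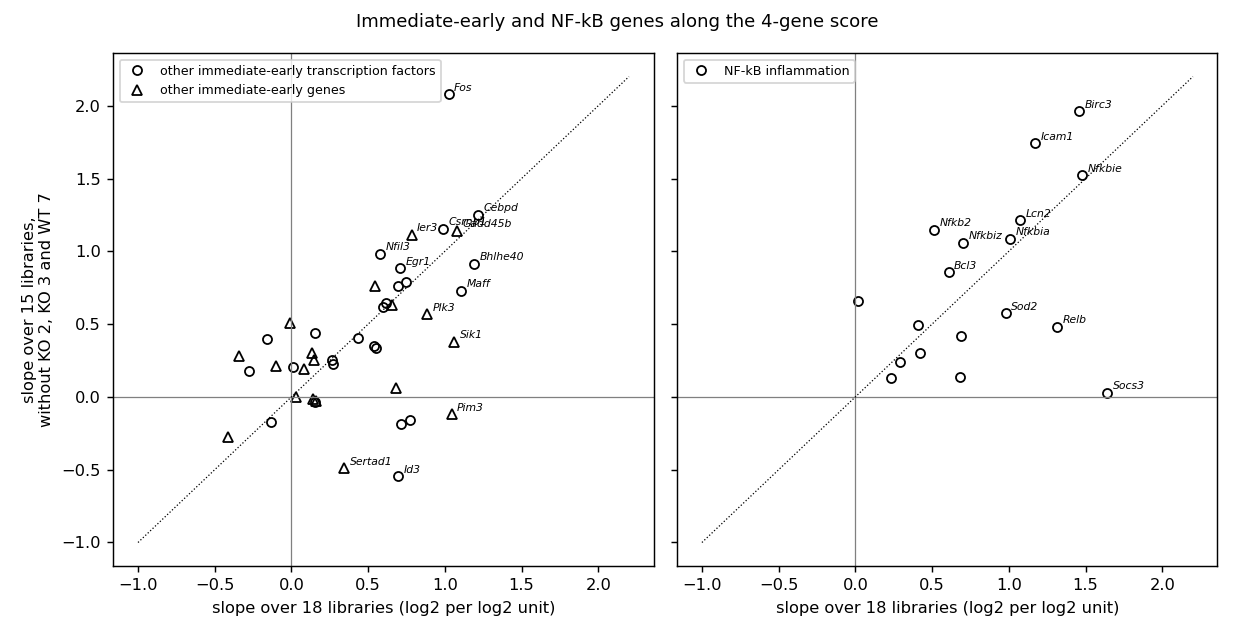
Slopes on the score for early response genes (left) and NF-kB genes (right), over 18 libraries (x axis) and without KO 2, KO 3 and WT 7 (y axis), in log2 per log2 unit of score, with a dotted line of equal slopes. Fos has a slope of 1.02 over 18 libraries and 2.08 without the 3, while Socs3 goes from 1.64 to 0.03.

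The NF-kB and inflammatory genes had the highest median slope among the lists of stress and signalling genes, and their values were spread mostly above 0. All 18 measured members had a slope above 0, where 53.2% of all genes did, with a median of 0.69, and 0.62 without KO 2, KO 3 and WT 7. At an unadjusted p under 0.05, 10 of the 18 had rising slopes, against 9.99% of all genes, and Sod2 passed the adjusted threshold, which 0.105% of all genes did. In 17 of the 18 the slope was above 0 in both KO and WT, against 33.3% of all genes. With the run of title numbers as a term, 11 of 18 were above 0 and the median was 0.43. In that fit 5445 of all 10505 genes were above 0, with a median of 0.03. Nfkbia, the inhibitor that NF-kB induces against itself, was 9.37 in KO 1, 7.40 in KO 6, 7.20 in KO 10, 7.29 in KO 4, 9.36 in KO 7 and 9.37 in KO 8. It was 6.24 to 7.65 in the low set, so KO 1, KO 7 and KO 8 were well above all low libraries and the other 3 high libraries overlapped them. Its slope of 1.01 ± 0.27 had an adjusted p of 0.103. Relb, a subunit of the noncanonical pathway, was listed at 0 reads in KO 3 and had a slope of 1.32 with an adjusted p of 0.145. Socs3, which limits cytokine receptors, went from a slope of 1.64 to 0.03 without the 3 libraries.

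Of 26 interferon-response genes, 24 had a slope above 0 (53.2% of all genes), 7 had an unadjusted p under 0.05 in the rising direction (9.99% of all genes) and Gbp3, a guanylate-binding GTPase, passed (0.105% of all genes). The list's median slope was 0.43, and 0.46 without the 3 libraries, but it was 0.78 in KO and 0.19 in WT. With the run of title numbers as a term, 6 of 26 were above 0 and the median was -0.31. Over all genes with that term, 5445 of 10505 were above 0 and the median was 0.03. Gbp3 was listed at 0 reads in KO 3 and WT 7, and lay at 2.18 to 3.48 in the high set, on at most 38 reads, where the low set reached 2.29. Ifit1, an interferon-induced RNA-binding protein, was 6.23 in KO 1, 6.05 in KO 10, 6.83 in KO 7 and 6.12 in KO 8, but 4.77 in KO 6 and 4.35 in KO 4, where the low set reached 4.38. Its slope was 2.09 in KO and 0.38 in WT. A test of score by genotype interaction called 0 genes in limma, with 437 at an unadjusted p under 0.05, so this difference between genotypes was not established. Of the glucocorticoid target genes, 7 of 7 had a slope above 0, against 53.2% of all genes, with a median of 0.54, but Cebpd and Mt2 are among these and Fkbp5 and Tsc22d3, at -0.67 and -0.24, were below 0 without the 3 libraries.

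Genes of the endoplasmic reticulum had a median slope of 0.37, with 16 of 21 above 0 and 10 rising at an unadjusted p under 0.05, and 0.14 without KO 2, KO 3 and WT 7. For these lists too, 53.2% of all genes had a slope above 0 and 9.99% had a rising slope at that level. Xbp1, a transcription factor that drives the unfolded protein response, was 5.60 to 6.10 in the high set and 3.94 to 5.57 in the low set, with no overlap, but its slope went from 0.75 to 0.03 without the 3 libraries. Manf, a secreted stress protein, went from 0.90 to -0.09. Nuclear-encoded genes of oxidative phosphorylation had 56 of 70 slopes above 0 and a median of 0.28, and ribosomal protein genes had 44 of 63 and 0.23, which became 0.07 and 0.01 without the 3 libraries. Heat-shock genes had a median of 0.14, with 13 of 17 above 0 and 1 of 17 rising at an unadjusted p under 0.05. Hspa1a, the inducible HSP70, reached 6.58 in the high set, with a median there of 3.78, against 0.72 to 3.60 in the low set. Integrated stress response genes had a median of 0.06, with 10 of 19 above 0 and 2 rising at that level. Hypoxia genes had a median of 0.13, with 11 of 15 above 0 and 5 rising at that level. The hypoxia median was 0.28 without the 3 libraries, 0.43 within KO and -0.02 within WT.

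Beta-cell identity genes had a median slope of 0.03, equal to that of all genes, with 13 of 25 above 0 (53.2% of all genes), and insulin granule genes had a median of -0.01, with 12 of 24. Ins1 lay at 14.35, 15.41 and 15.96 in the high set and 15.39, 15.80 and 16.71 in the low set, and its slope was -0.09 with an adjusted p of 0.923. Slc2a2, the glucose transporter GLUT2, lay at 6.76, 7.30 and 8.03 against 7.39, 8.03 and 8.42, and its slope of -0.39 had an adjusted p of 0.336. Nmrk1, the gene of NRK1, had 3 to 36 reads a library and lay at 1.33, 2.05 and 2.61 in the high set, all KO, against 0.53, 1.93 and 3.32 in the low set. The 3′ reads of the library kit need not fall in the part that was deleted, so this gene checks nothing here.

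Markers of other cells were read beside these results. All 20 acinar markers had a slope above 0, against 53.2% of all genes, with a median of 0.83, but it was 0.01 within KO and 1.68 within WT, and their summed level was 88.3 to 1892 CPM in the high set and 95.7 to 796 CPM in the low set. Myeloid markers had 7 of 15 above 0 and a median of -0.06, endothelial markers 8 of 15 and 0.06, and fibroblast, pericyte and matrix markers 7 of 21 and -0.21. Summed levels of the myeloid markers were 108 to 404 CPM in the high set and 181 to 377 CPM in the low set, so the sets overlapped. Flt1, an endothelial receptor, was the marker that passed between the sets without a genotype term, at 6.33 to 6.87 against 5.71 to 6.20. Over the 18 libraries with genotype as a covariate its slope was 0.30, beside 0.31 for Pecam1 and 0.18 for Tie1. Other endothelial markers fell, with slopes of -0.35 for Egfl7 and -1.18 for Tek, and none of the 15 passed. At an unadjusted p under 0.05 in limma, 0 of the 15 rose (9.99% of all genes) and 2 fell (5.26% of all genes). With an acinar score as a covariate 6 of the 11 genes that moved with the score still passed. In bulk islets, fewer cells of a type and less RNA per cell cannot be told apart.

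**Figure D5:**
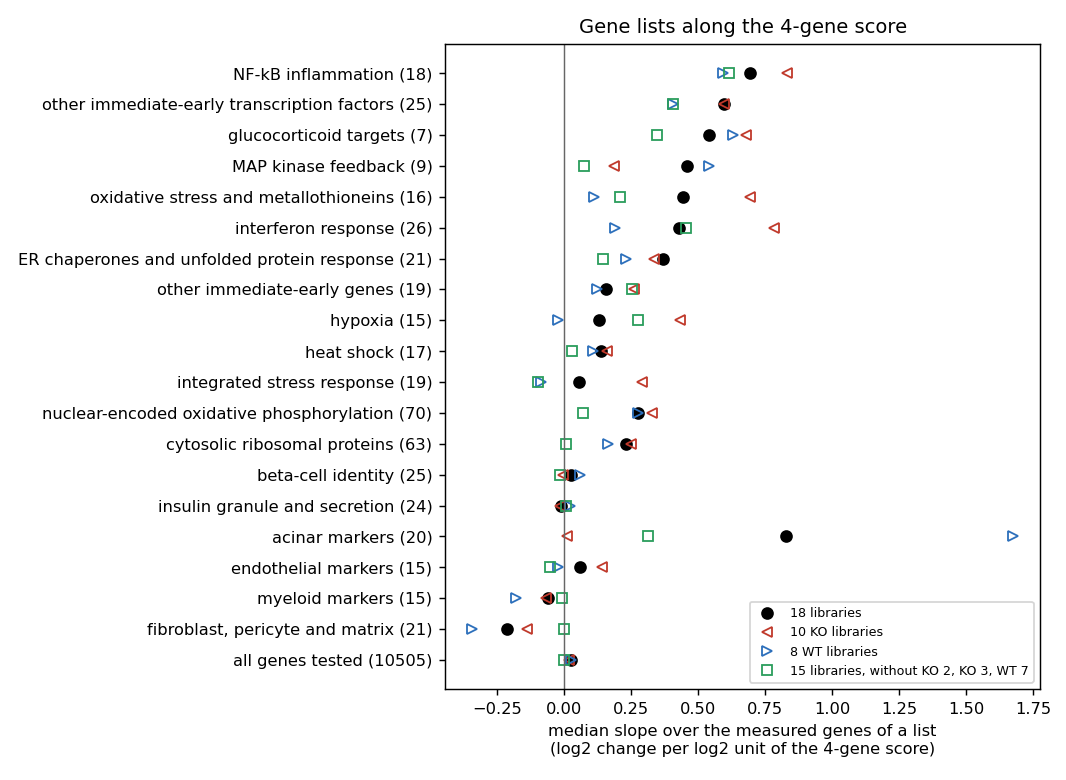
Median slope of each gene list on the score (x axis, log2 per log2 unit), over 18 libraries, within KO, within WT, and without KO 2, KO 3 and WT 7; the number of measured genes stands beside each list. The NF-kB list stays near its value, 0.69 and 0.62, while the acinar list goes from 0.83 to 0.31 and ribosomal protein genes from 0.23 to 0.01.

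The genes whose pattern was most like the score, by Pearson's r over the 18 libraries, were Stc1 at 0.875, Tent5a at 0.873, Fosl2 at 0.826, Gbp3 at 0.825 and Samd4b at 0.806. These are descriptions over libraries that share genotype, run and depth with the score. Samd4b, an RNA-binding protein gene, lay at 6.11 to 6.25 in the high set and 5.20 to 5.76 in the low set, and its slope of 0.31 had an adjusted p of 0.225. When each genotype was split by score into an upper and a lower group of equal size, no gene passed in limma. At an unadjusted p under 0.05 stood 883 genes, and 524 of those were higher in the upper group.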

How the data were processed

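Islet mRNA was measured by 3′ end sequencing (QuantSeq FWD kit, per the labels' protocols). GRCm38 is the build and edgeR, HTSeq 0.6.1 and STAR 2.5.2 are the tools listed by the submitters' processing notes, with no roles given. The deposited values are log2 of CPM plus a floor of 0.562 CPM; within 0.05 read, 100% of values were whole reads, 1 read being worth 0.238 to 0.411 CPM. Libraries were grouped by the genotype label. The 73 pairs within a genotype differed beyond sampling noise (chi-square divided by its degrees of freedom, lowest 6.01).

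The main test was limma 3.58.1 in R 4.3.3 (mean-variance trend, genotype as covariate, two-sided) over 10505 genes, leaving out the 4 defining genes. Requiring a log2 value above 0 in 6 or more libraries removed none. Adjusted p-values are Benjamini-Hochberg, with a threshold of 0.05. Slopes over 18 libraries are limma fits of the score with genotype. Recovered reads went only into limma voom. Coordinates and names came from RefSeq, where 10508 identifiers matched. The members, lists and rule for named genes were chosen with earlier results of these data known. Named genes were the 10 of smallest p in each direction, the 4 of smallest p in each list (up to 8 in 3 lists), Ins1, Ins2 and Nmrk1, and the 5 closest to the score. Genes passing without a genotype term or over 18 libraries, and Fos, Fosb, Egr1, Atf3, Jund, Btg2, Klf6 and Nfkbia, were added after their values were seen. A planned Fisher's exact test of genotype between the sets is not given, since the sets come from genes chosen with genotype results known. The fits were also run on simulated reads, drawn independently for each gene and library. That simulation held no outlying library, so it says nothing on the dependence on KO 3. Fold changes of low genes are understated on this scale. Read numbers do not count independent molecules.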

Additional observations from a re-analysis of the deposited data

Results flagged for a closer look

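In 4 of 54 groups of 6 libraries tested, 1 library stood far from the other 5, and chance gives about 1 in 20 such groups. In the high set, Cst3, which encodes the protease inhibitor cystatin C, was 8.58 in KO 10 where the next high library had 7.89. Crybb3 was 6.04 in KO 10, below the next lowest high library at 6.70. Tent5a was 7.25 in KO 4, where the next lowest high library had 7.78. In the low set, Flt1 was 6.20 in WT 6, where the next library had 5.88.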

How the results depend on the processing

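The number of genes called between the sets, 89, was 30 with quantile normalization, 28 with no mean-variance trend, 0 with limma voom (964 at an unadjusted p under 0.05), 15 with no genotype term, 180 with an acinar score and 4 with genes without a read as a covariate, 158 in KO libraries only and 183 at an adjusted p under 0.10. These count all genes called and are no share of the 89: 5 of the 15 were among them. With other libraries compared the number was 0 for the 9 highest against the 9 lowest (1142 at an unadjusted p under 0.05), 0 for an upper against a lower group within each genotype (883 so), 10 with no genotype term and without KO 3 and WT 7, and 11 with the score as a continuous term. Scoring without Ier2 gave 299 and without Junb 0 (866 so). Leaving out 1 library gave 61 to 237, the highest without WT 7. Without KO 3, without the 3 libraries with most genes at no read, within WT and with the run as a term, this contrast could not be fitted. Pld3 and Tuba1b turned to -0.10 and -0.050 with no genotype term and without KO 3 and WT 7.

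The number of genes moving with the score, 11, was 6 with median centring, 2 with quantile normalization, 0 with no trend (1496 at an unadjusted p under 0.05), 7 with robust empirical Bayes, 1 with voom, 0 with genes without a read as a covariate (394 so), 0 without KO 2, KO 3 and WT 7 (353 so), 2 with the run term (neither of them among the 11), 0 in KO only (890 so) and 0 in WT only (1097 so). Leaving out 1 library gave 0 to 137. These alternatives were added after seeing the data.

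The share of KO libraries was 83.3 percentage points higher in the high set, 80 for 5 against 5 and 44.4 for 9 against 9. The difference in the share of Ins2 was 0.506 percentage points, -0.366 for 5 against 5 and -1.31 for 9 against 9, and -0.591 to 3.22 leaving out 1 library. Genes with no read differed by -105.4 for 5 against 5 (exact p = 0.0159) and by -96.7 to -45.5 leaving out 1 library. Reads differed by -45414 to 212927 leaving out 1 library. No paired analysis was possible because the labels give no replicate numbers that the groups share. Genes with under 10 reads a library limit the precision of many named values.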

Other observations

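With the run of title numbers as a term over 14 libraries, the genes that passed in limma were Cers2 and Mgp. Cers2, a ceramide synthase of very long chain lipids, had a slope of 2.68 ± 0.46 (SE) with an adjusted p of 0.0241, against 0.78 and an adjusted p of 0.202 over 18 libraries without that term. Mgp, a matrix protein that inhibits calcification, had a slope of 2.05 ± 0.32 with an adjusted p of 0.014, against 0.09 over 18 libraries. The 11 genes that moved with the score over 18 libraries all had slopes above 0 with that term, from 0.36 to 2.64, and none of them passed. The 14 libraries are among the 18 on which the 11 were chosen, so their sign is no separate support.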
